A study of Mus musculus with 51 samples.

Results

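Transcript levels of 10 genes for lipases and lipid droplet proteins were followed in 6 tissues of mice that had undergone Roux-en-Y gastric bypass, called RYGB here, or sham surgery. The genes were chosen by symbol: Pnpla2, Lipe, Mgll, Lpl, G0s2, Plin1, Plin2, Plin4, Plin5 and Cidec, among 14606 genes listed in at least 1 tissue. Of the 10, 6 were listed in duodenum, 7 in jejunum, 7 in ileum, 9 in liver and 10 each in subcutaneous white adipose tissue (WAT) and gastrocnemius muscle. A gene absent from a tissue had fallen below the authors' filter of 1 CPM there (the read count of a gene scaled to the total of its library). Pnpla2, Lipe, Mgll, Lpl, Plin2 and Cidec were listed in all 6 tissues. Plin1 was listed in WAT and muscle only.

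All animals were male C57Bl6 mice made obese by feeding, studied 9 weeks after the operation. RYGB reroutes food past most of the stomach and the duodenum into the jejunum. After the operation all mice received a liquid elemental diet and then high-fat food again, and the sham mice were given restricted rations so that their weights matched those of the RYGB mice. The mice had fasted overnight when tissues were taken. Bypass and rationing differ together between the groups and cannot be told apart. Libraries numbered 5 sham and 4 RYGB in duodenum, jejunum and WAT, 5 and 2 in ileum, 4 and 5 in liver, and 4 and 4 in muscle. They came from 5 sham and 5 RYGB animals, each of which gave at least 4 tissues. The source field of the RYGB muscle samples names the sham operation, and their titles and surgery labels were followed. Gut samples were scraped villi, and the sources do not say from which limb of the bypass the jejunal tissue came.

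Fat is stored as triglyceride in lipid droplets, and its release inside the cell runs through a chain of lipases. Pnpla2 encodes ATGL, which removes the first fatty acid. Lipe encodes hormone-sensitive lipase, which acts on the diglyceride, and Mgll encodes the monoglyceride lipase that ends the chain. G0s2 encodes a small protein that binds and inhibits ATGL. Lpl encodes lipoprotein lipase, which is secreted, works on the capillary wall and frees fatty acids from circulating lipoproteins for uptake. The perilipins coat the droplet: Plin1 is the gatekeeper of lipolysis in adipocytes, Plin2 coats droplets in most cell types, Plin4 binds nascent droplets of adipocytes, and Plin5 is typical of oxidative tissues. Cidec, also called Fsp27, lets droplets fuse and grow. In enterocytes, droplets hold absorbed fat for a short time before it leaves in chylomicrons.

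Some libraries stood apart in ways that touch these genes. In duodenum, 12 transcripts of pancreatic acinar cells, 11 of them listed, reached 5.27%, 7.85% and 5.32% of all CPM for sham libraries 1 to 3 and 1.33% in RYGB library 2, against 0.0655% to 0.146% in the others. In ileum, sham library 4 had 31636 CPM of crypt and Paneth cell transcripts, where the other sham libraries had 33.9 to 119.4. Libraries of the same tissue and operation correlated across genes at 0.793 to 0.990 on the log2 scale. Defining markers of each labelled tissue were present: the enterocyte list summed to at least 10034 CPM in every gut library, the hepatocyte list to at least 26276 in liver, the adipocyte list to at least 16955 in WAT and the skeletal muscle list to at least 61658 in muscle. The lowest enterocyte sum, 10034 CPM, was that of the same ileal sham library 4, where the other ileal sham libraries had 34561 to 38380. All samples are bulk tissue, in which fewer cells of a type and less RNA per cell cannot be told apart.

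Adipose tissue had the highest mean level of 9 of the 10 genes in sham mice. Lpl averaged 8440.0 ± 1604 CPM in sham WAT (SD, n = 5) and 2908 ± 1688 in sham muscle (SD, n = 4), and the ranges of these neighbours did not overlap. Cidec averaged 2009 ± 203 CPM in sham WAT (SD, n = 5) and 82.6 ± 29.0 in sham duodenum, the next tissue. Plin5 was the exception, with 40.4 ± 22.2 CPM in sham muscle (SD, n = 4) and 31.8 ± 6.04 in sham WAT (SD, n = 5), where the ranges overlapped. For Plin2 the ranges of WAT and the next tissue also overlapped, at 315.6 to 508.4 CPM in sham WAT and 112.5 to 423.9 in sham liver. Liver was the tissue with the lowest level of Pnpla2 and Lipe, at 2.73 ± 1.03 and 0.925 ± 0.435 CPM in sham mice (SD, n = 4).

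The order of the genes within a tissue also differed. On the scale of CPM per kilobase of exon, averaged over all libraries of a tissue, WAT was led by Lpl at 1195 ± 495, Cidec at 1047 ± 369, Pnpla2 at 689 ± 272 and Plin4 at 486 ± 255 (SD, n = 9, both groups). Muscle was led by Lpl at 295.9 ± 155, Pnpla2 at 78.1 ± 31.3 and Plin4 at 31.6 ± 12.4 CPM per kilobase (SD, n = 8). Liver was led by Plin2 at 47.0 ± 34.3 and G0s2 at 27.7 ± 25.5 CPM per kilobase (SD, n = 9), whereas Pnpla2 stood at 1.85 ± 1.68. In duodenum and jejunum Cidec led, at 37.2 ± 16.3 and 44.4 ± 31.9 CPM per kilobase (SD, n = 9 each), ahead of Pnpla2 at 28.7 ± 8.71 and 26.8 ± 8.35. In ileum Pnpla2 led at 37.4 ± 6.44 and Cidec followed at 30.1 ± 13.4 (SD, n = 7). Villi thus carried the transcript of the fusion protein Cidec at a higher level per length than that of the general coat protein Plin2, which stood between 13.4 and 14.8 in the 3 gut segments.

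The genes were then compared between RYGB and sham mice in each tissue with limma on log2(CPM + 1), adjusted over all genes of the tissue, with calls at an adjusted p below 0.05. Fold changes on this scale understate the change of genes with low CPM. Of 49 tests, 3 gave a rise and 3 a fall. In WAT 4 of 10 genes were called, with 40.6% of all tested genes called there. In jejunum 2 of 7 were called against 12.6% of all genes. No member was called in duodenum (0 of 6, against 0.348% of all genes), liver (0 of 9, against 4.63%), ileum (0 of 7, against 0.0%) or muscle (0 of 10, against 0.0%). The share called in WAT was close to that of all genes and is no result about the members. In WAT the groups did not overlap for 3 of 10 members, against 33.6% of all genes. They did not overlap for 1 of 7 in jejunum (14.3% of all genes) and 1 of 6 in duodenum (7.58%). It was 0 of 9 in liver (12.3%), 0 of 7 in ileum (8.09%) and 0 of 10 in muscle (3.86%). The WAT and jejunum shares were again close to those of all genes. At an unadjusted p below 0.05, 13 of the 49 tests passed. These were 2 of 6 in duodenum, 3 of 7 in jejunum and 0 of 7 in ileum. In liver it was 2 of 9, in WAT 4 of 10 and in muscle 2 of 10. Among all genes 2486 of 10930, 3362 of 11021, 438 of 12041, 3474 of 10285, 6443 of 12690 and 812 of 11594 passed, in the same order. With so many genes passing, the count of 13 is no result about the members. The estimate was below 0 in 35 of the 49 tests. Over all genes the median estimate was 0.15 in duodenum, 0.080 in jejunum, −0.085 in ileum, 0.26 in liver, −0.16 in WAT and −0.0027 in muscle. The share of all genes below 0 was not counted, so the 35 is no result about the members. For G0s2 in jejunum and for Lpl and Plin4 in ileum, only sham libraries reached the filter of 1 CPM. That filter favours an estimate below 0 for them. With median-of-ratios scaling, Plin2 in duodenum turned negative at −0.11 and Plin5 in WAT turned positive at 0.027. That scaling brings the median change over all genes in WAT from −0.16 to 0.0047, a shift of −0.17 in the CPM. Without the scaling, the 10 members had a median of −0.21 in WAT beside the −0.16 of all genes. With the scaling, the 4 called members were Pnpla2 at 0.85, Lpl at 1.26, G0s2 at −1.06 and Plin4 at −1.49, all still called. Mgll was then called as well (0.45).

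**Figure D1:**
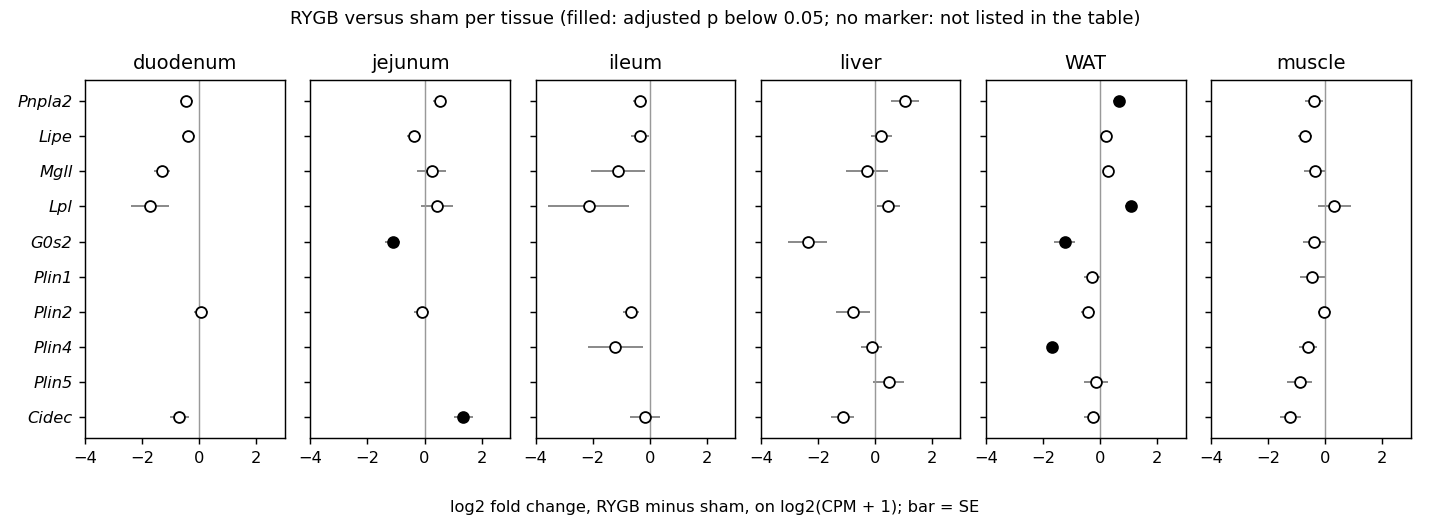
Log2 fold change (RYGB minus sham, on log2(CPM + 1)) of the 10 genes in each of 6 tissues; points are limma estimates, bars are standard errors, and filled points have an adjusted p below 0.05. Filled points appear in jejunum for G0s2 (−1.12) and Cidec (1.36), and in WAT for Pnpla2 (0.66), Lpl (1.07), G0s2 (−1.24) and Plin4 (−1.68).

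In WAT, transcripts of the lipases Lpl and Pnpla2 rose after RYGB, while those of the droplet coat Plin4 and of the ATGL inhibitor G0s2 fell. The RYGB mean was 2.09 times the sham mean for Lpl, 1.64 times for Pnpla2, 0.480 times for G0s2 and 0.317 times for Plin4. The other enzymes of the lipolytic chain, Lipe and Mgll, and the other droplet proteins, Plin1, Plin2, Plin5 and Cidec, did not pass the test, except that Mgll was called with median-of-ratios scaling (0.45, adjusted p = 0.0369).

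Lpl (chr8:68880491-68907448, GRCm38, plus strand) ranked 4 by mean CPM among the 12690 genes of WAT. It stood at 8816.7, 10460.9, 6654.4, 6973.7 and 9294.3 CPM in the 5 sham libraries and at 17211.4, 20737.3, 17647.9 and 14851.8 in the 4 RYGB libraries. Every RYGB library was above every sham library, in a tissue where the groups did not overlap for 33.6% of all genes. The rise was 1.07 ± 0.20 on the log2 scale (SE, adjusted p = 0.0022), and it passed the test in each of the 9 fits that left out a library.

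Pnpla2 (chr7:141455198-141460743, GRCm38, plus strand), the gene of ATGL, stood at 1349.6, 1705.0, 1526.9, 1665.4 and 1839.0 CPM in sham WAT and at 2370.0, 4100.9, 2141.5 and 2019.2 in RYGB WAT. The groups did not overlap, and RYGB library 2 stood well above the other 3. The rise was 0.66 ± 0.22 (SE, log2, adjusted p = 0.0326). The call was lost without sham library 1, 2, 3 or 4 or RYGB library 1 or 2, with adjusted p between 0.0509 and 0.0782, and without RYGB library 2 the estimate was 0.43 (adjusted p = 0.0520). Abhd5, the co-activator of ATGL, averaged 280.1 ± 30.8 CPM in sham (SD, n = 5) and 517.0 ± 287 in RYGB WAT (SD, n = 4) and was not called (0.74 ± 0.29, SE, log2, adjusted p = 0.0595).

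Lipe and Mgll encode the next enzymes of the chain. Lipe ranged from 1021.0 to 1234.5 CPM in sham and from 1046.7 to 1552.0 in RYGB WAT (0.23 ± 0.16, SE, log2, adjusted p = 0.269). Mgll ranged from 1202.5 to 1506.3 in sham and from 1360.2 to 2022.3 in RYGB WAT (0.27 ± 0.16, SE, log2, adjusted p = 0.206). For both genes the groups overlapped. The Lipe to Pnpla2 ratio of CPM was 0.671 to 0.757 in sham WAT and 0.322 to 0.719 in RYGB WAT.

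G0s2 (chr1:193272161-193273217, GRCm38, minus strand), the inhibitor of ATGL, stood at 192.8, 150.4, 118.9, 104.6 and 150.8 CPM in sham WAT and at 88.0, 35.7, 31.0 and 120.9 in RYGB WAT. RYGB library 4 overlapped the sham libraries and the other 3 lay below them. The fall was −1.24 ± 0.37 (SE, log2, adjusted p = 0.0225). The call was lost without sham library 1 (−1.13, adjusted p = 0.0539), RYGB library 2 (−1.01, adjusted p = 0.0605) or RYGB library 3 (−0.94, adjusted p = 0.0504). The gene overlaps Lamb3 on the opposite strand, and whether counting used the strand is unknown here. Lamb3, a laminin chain of epithelia, fell in WAT as well, from 7.0 ± 1.505 (SD, n = 5) to 1.33 ± 0.978 CPM (SD, n = 4; −1.85 ± 0.28, SE, log2, adjusted p = 0.000817). Its part in the G0s2 values was not tested. Its level was well below that of G0s2 in both groups.

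Set against each other within a library, the transcripts of ATGL and its inhibitor separated the groups in WAT. The Pnpla2 to G0s2 ratio of CPM was 7.0, 11.3, 12.8, 15.9 and 12.2 in sham WAT and 26.9, 114.9, 69.1 and 16.7 in RYGB WAT. The lowest RYGB library was just above the highest sham library. These ratios were chosen after the values of both genes had been seen and were not tested.

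Plin4 (chr17:56100591-56109803, GRCm38, minus strand) gave the smallest adjusted p of the 10 genes. It stood at 4424.6, 3892.9, 4139.6, 3705.5 and 3980.0 CPM in sham WAT and at 1694.5, 1203.8, 1107.5 and 1095.1 in RYGB WAT. The groups were far apart, with every RYGB library below every sham library. No overlap was seen for 33.6% of all genes of WAT. The fall was −1.68 ± 0.17 (SE, log2, adjusted p = 0.000123), and it passed in each of the 9 fits that left out a library. Plin4 overlaps Hdgfl2 on the opposite strand, listed in the files as Hdgfrp2, which averaged 10.2 ± 2.54 CPM in sham and 16.2 ± 5.84 in RYGB WAT and was not called (adjusted p = 0.0859).

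Plin5 lies 1797 bases from Plin4 on chromosome 17 and on the same strand, and it was not called in WAT. It stood at 26.6, 35.1, 27.2, 29.4 and 40.8 CPM in sham WAT and at 24.7, 40.6, 9.6 and 62.3 in RYGB WAT. The RYGB libraries lay on both sides of the sham libraries (−0.15 ± 0.42, SE, log2, adjusted p = 0.786). The sequences upstream of the RefSeq start of Plin4 and of this neighbour are shown together because the genes are adjacent and only Plin4 was called, and that of G0s2 because it was the other member that fell in WAT. Each run gives the 250 bases before the start, 5′ to 3′, from the RefSeq promoter table of build GRCm38.p6. All 3 lie on the minus strand, at chr17:56109783-56110032 for Plin4, chr17:56117549-56117798 for the upstream start of Plin5 and chr1:193273189-193273438 for G0s2. Capitals mark AGGTCA, the half-site of nuclear receptors such as the PPARs.
Plin4: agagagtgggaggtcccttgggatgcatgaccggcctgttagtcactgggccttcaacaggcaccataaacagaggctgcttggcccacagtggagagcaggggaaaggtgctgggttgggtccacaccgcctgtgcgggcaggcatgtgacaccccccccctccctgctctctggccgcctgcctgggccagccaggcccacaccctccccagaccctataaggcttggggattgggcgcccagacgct
Plin5: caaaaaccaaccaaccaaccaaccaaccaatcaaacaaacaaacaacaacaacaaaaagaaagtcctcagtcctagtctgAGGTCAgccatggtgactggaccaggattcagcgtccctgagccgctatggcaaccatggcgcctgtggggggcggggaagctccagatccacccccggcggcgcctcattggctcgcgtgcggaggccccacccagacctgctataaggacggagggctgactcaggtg
G0s2: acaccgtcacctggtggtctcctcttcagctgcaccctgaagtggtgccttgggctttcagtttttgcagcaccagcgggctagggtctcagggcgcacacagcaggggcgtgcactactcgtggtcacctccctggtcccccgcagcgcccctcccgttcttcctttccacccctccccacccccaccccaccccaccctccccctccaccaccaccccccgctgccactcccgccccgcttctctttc
The half-site AGGTCA was searched on both strands, as TGACCT on the other. It was found in the Plin5 sequence, 170 bases before the start, and not in the Plin4 or G0s2 sequence. Of 32851 mouse start windows of the same length, 14% held it. Every match is a description of letters in a window and says nothing of binding.

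Plin1, the perilipin of adipocytes, stood at 981.5, 1218.7, 686.6, 1025.4 and 1057.0 CPM in sham WAT and at 1192.4, 431.3, 884.6 and 901.0 in RYGB WAT. The groups overlapped, with RYGB library 2 the lowest of all (−0.29 ± 0.28, SE, log2, adjusted p = 0.424). The Plin4 to Plin1 ratio of CPM was 3.19 to 6.03 in sham WAT and 1.22 to 2.79 in RYGB WAT, so that these ranges did not overlap. That ratio was chosen after the values had been seen and was not tested.

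Plin2 ranged from 315.6 to 508.4 CPM in sham and from 175.9 to 429.8 in RYGB WAT (−0.43 ± 0.24, SE, log2, adjusted p = 0.178), and it was called without RYGB library 4 (−0.63, adjusted p = 0.0493). Cidec stood at 1834.4 to 2323.5 CPM in sham WAT and at 1524.4, 3468.8, 1084.7 and 1370.0 in RYGB WAT. RYGB library 2 was above and the other 3 were below the sham libraries. The difference was −0.26 ± 0.29 (SE, log2, adjusted p = 0.497), and without RYGB library 2 it was −0.61 (adjusted p = 0.0174). That library was thus the highest for Pnpla2, Lpl and Cidec and the lowest for Plin1.

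**Figure D2:**
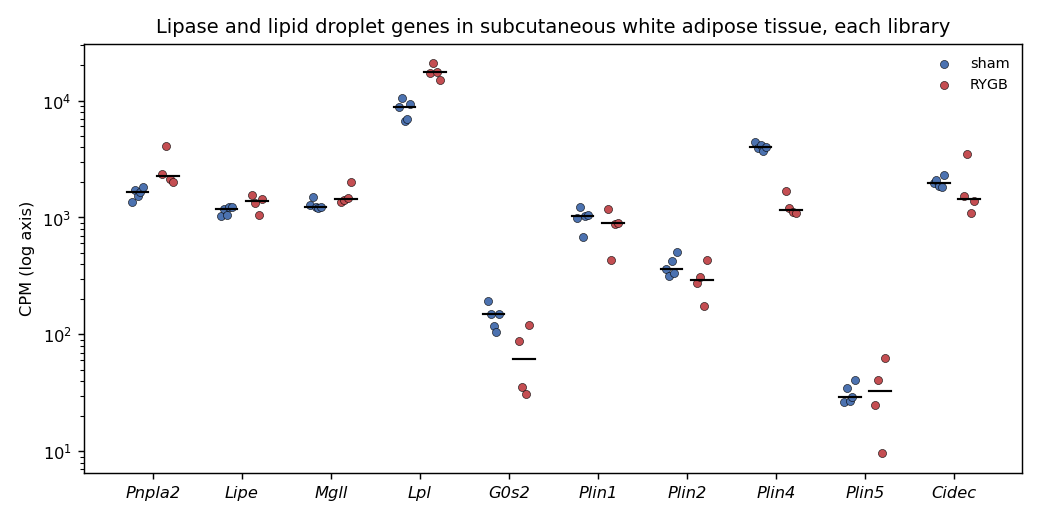
CPM (log axis) of the 10 genes in each subcutaneous WAT library; each point is 1 animal (5 sham, 4 RYGB) and each line a group median. Plin4 points of RYGB animals (1095.1 to 1694.5) lie below all sham points (3705.5 to 4424.6), and Lpl and Pnpla2 points of RYGB animals lie above all sham points.

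Other transcripts moved with these. The adipocyte list, all 7 of 7 listed, summed to 16955 to 28721 CPM in sham and 29536 to 65019 in RYGB WAT. Most of that sum was Car3 (mean 16186 CPM in sham, 29270 in RYGB) and Cfd (2533 and 12853). Of the genes on the list 4 rose (Cfd, Retn, Car3, Adrb3) and Lep fell, where 40.6% of all WAT genes were called. Adipoq was not called (1801 ± 241 CPM in sham, 2320.2 ± 628 in RYGB, adjusted p = 0.179), nor was Acvr1c (−0.29, adjusted p = 0.340). The brown adipocyte list, 4 of 4 listed, summed to 3.6 to 44.9 CPM in sham and 165.8 to 3557 in RYGB WAT. RYGB library 4 was the highest, and all 4 genes rose. Of these, Elovl3 had at most 0.9 CPM in sham and 9.5 to 110.9 in RYGB WAT. It met the filter of 1 CPM in 4 libraries through the RYGB group alone, and its rise depends on that filter. The list of lipid-laden macrophages, 3 of 3 listed, summed to 94.7 to 167.9 CPM in sham and 25.5 to 60.6 in RYGB WAT, and all 3 fell. The general macrophage list, 3 of 5 listed, summed to 357.3 to 580.9 CPM in sham and 353.5 to 745.4 in RYGB WAT, and of its genes Cd68 (−0.78, adjusted p = 0.0196) and Csf1r (−0.80, adjusted p = 0.0434) fell. The lymphocyte list, 4 of 5 listed, summed to 5.0 to 12.9 CPM in sham and 3.6 to 274.9 in RYGB WAT, the highest again in RYGB library 4, and none of its genes was called. The hepatocyte list, 4 of 5 listed, summed to 478.4 to 1589 CPM in sham and 2791 to 16500.4 in RYGB WAT, through Cyp2e1, which rose, whereas Alb fell from 137.2 to 61.1 CPM. The part of these cell types in the member results was not tested.

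Genes that work with Lpl changed in both directions in WAT. Of 12 measured, 4 rose and 4 fell, where 40.6% of all WAT genes were called. The median log2 fold change was −0.15, with −0.16 over all genes. Lmf1, which lipoprotein lipase needs to fold, rose from 12.1 to 29.8 CPM (1.22 ± 0.17, SE, log2, adjusted p = 0.000517), while Sel1l, another maturation factor, fell (−0.83 ± 0.19, SE, adjusted p = 0.00644). Among its inhibitors, Angptl4 fell from 748.2 to 531.8 CPM (−0.50 ± 0.17, SE, log2, adjusted p = 0.0375). Gpihbp1, which carries the enzyme to the capillary lumen, was not called (−0.52 ± 0.25, SE, log2, adjusted p = 0.119). Cd36, a fatty acid transporter, fell from 14535 to 7666 CPM (−0.96, adjusted p = 0.0042).

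The other triglyceride lipases and their cofactors gave 3 rises and 1 fall among 12 measured in WAT, with a median log2 fold change of 0.49. That share was not above the 40.6% of all WAT genes called and is no result about the list. Pnpla3, a relative of ATGL, rose from 75.3 to 365.1 CPM (2.28 ± 0.59, SE, log2, adjusted p = 0.0115), and Lipg and Ddhd2 rose too. Lipa, the lysosomal lipase, fell (−0.52, adjusted p = 0.0229). Among 18 droplet assembly genes, 5 rose and 5 fell, with a median of −0.068. Cidea, a relative of Cidec, had the largest rise, from 4.36 to 177.7 CPM (4.78 ± 0.52, SE, log2, adjusted p = 0.000177), and it is also on the brown adipocyte list. Bscl2, which encodes seipin, rose from 151.1 to 483.3 CPM. Hilpda, an inhibitor of ATGL like G0s2, fell from 24.6 to 5.63 CPM (−1.96 ± 0.22, SE, log2, adjusted p = 0.000197).

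Of 26 genes for hormonal control of lipolysis, 7 rose and 6 fell in WAT, with a median log2 fold change of −0.15. Npr3, the clearance receptor for natriuretic peptides, fell from 2619 to 141.9 CPM (−4.37 ± 0.47, SE, log2, adjusted p = 0.000172). The receptors Hcar2 and Hcar1, which restrain lipolysis, rose (2.08 and 1.89), as did the adrenergic receptor Adrb3, from 118.6 to 488.8 CPM (2.33, adjusted p = 0.00319). Of 15 transcriptional regulators, 5 rose and 2 fell (median 0.42). With 40.6% of all WAT genes called, the counts of the hormonal genes and of the regulators are no result about those lists. Pparg, the adipocyte regulator, was not called (−0.34 ± 0.19, SE, log2, adjusted p = 0.177). Of 21 PPARα target genes measured, 11 rose, among them Cpt2, Ehhadh and Hadha, and 5 fell, among them Vnn1 (median 0.53).

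In jejunum, the transcript of the droplet fusion protein Cidec rose and that of G0s2, already low, fell after RYGB. Cidec (chr6:113424634-113435760, GRCm38, minus strand) stood at 36.0, 50.5, 33.0, 46.2 and 63.0 CPM in the sham libraries and at 211.0, 104.8, 139.0 and 58.3 in the RYGB libraries. RYGB library 4 lay within the sham range and the other 3 above it. The means were 45.7 ± 12.02 (SD, n = 5) and 128.3 ± 64.3 (SD, n = 4), and the rise was 1.36 ± 0.33 (SE, log2, adjusted p = 0.0267). The call was lost without sham library 1, 2, 3 or 4 or RYGB library 1 or 3, with estimates of 1.07 to 1.40 and adjusted p of 0.0589 to 0.0737.

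G0s2 in jejunum stood at 2.2, 2.6, 0.6, 1.0 and 1.6 CPM in sham mice and at 0.1, 0.0, 0.3 and 0.2 in RYGB mice. All RYGB libraries were below all sham libraries, at levels where 1 decimal of CPM is the resolution of the files. The filter asked for 1 CPM in 4 libraries, and only sham libraries 1, 2, 4 and 5 reached that level. G0s2 was thus listed in jejunum through the sham group alone. Its fall and the gap between the groups depend on that filter. The fall was −1.12 ± 0.27 (SE, log2, adjusted p = 0.0236), and with a pseudocount of 0.1 in place of 1 it was −2.78. The call was lost without sham library 1 or 2 or RYGB library 1 or 3, with adjusted p of 0.0511 to 0.0620. Lamb3, which overlaps G0s2 on the opposite strand, averaged 75.6 ± 48.7 CPM in sham (SD, n = 5) and 45.0 ± 10.6 in RYGB jejunum (SD, n = 4) and was not called (−0.55 ± 0.39, SE, log2, adjusted p = 0.365). Its level was far above that of G0s2 in both groups, and its part in the jejunal G0s2 values and in their ratio to Pnpla2 was not tested.

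The lipases of the jejunum were not called. Pnpla2 stood at 54.8, 69.1, 48.2, 70.1 and 95.1 CPM in sham and at 109.5, 63.0, 117.6 and 100.8 in RYGB jejunum. Library 2 of the RYGB group lay within the sham range (0.53 ± 0.23, SE, log2, adjusted p = 0.154), and without it the gene was called (0.72, adjusted p = 0.0464). Lipe stood at 86.1 to 99.1 CPM in sham and 37.9 to 100.6 in RYGB jejunum (−0.38 ± 0.24, SE, log2, adjusted p = 0.322). The Lipe to Pnpla2 ratio of CPM was 1.57, 1.43, 1.84, 1.34 and 1.02 in sham and 0.746, 0.602, 0.702 and 0.998 in RYGB jejunum. Every RYGB ratio was below every sham ratio, the nearest pair differing by little. This ratio was chosen after the values had been seen and was not tested. Among single genes of the jejunum, 14.3% also had groups that did not overlap. In duodenum and ileum the ranges of this ratio overlapped.

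Mgll and Lpl in jejunum were scattered in the RYGB group. Mgll was at 4.3 to 7.6 CPM in sham and at 17.8, 1.8, 13.8 and 3.6 in RYGB jejunum, on both sides of the sham range. Lpl was at 0.5 to 1.1 CPM in sham jejunum, and RYGB library 1 had 10.7 while the other 3 had 0.2 to 0.8. Plin2 was at 30.1 to 56.5 CPM in sham and 31.9 to 62.6 in RYGB jejunum. None of these was called.

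Among the droplet assembly genes of the jejunum, 3 of 18 rose and 1 fell, where 12.6% of all genes were called. The median log2 fold change was 0.20, with 0.080 over all genes. Cideb, the relative of Cidec that loads lipoproteins with fat, rose from 182.3 to 284.8 CPM (0.61 ± 0.18, SE, log2, adjusted p = 0.0485), and Pcyt1a and Ubxn8 rose as well. Hsd17b11, a droplet enzyme, fell from 1384 to 536.7 CPM (−1.42, adjusted p = 0.0051). Plin3, the perilipin that enterocytes express beside Plin2, averaged 210.3 and 328.5 CPM and was not called (0.64, adjusted p = 0.0526). Of the other lipases, 2 of 13 rose and 6 fell (median −0.48). Pnliprp2, a lipase better known from pancreas, rose from 7.60 to 237.6 CPM (4.06, adjusted p = 0.0151), and Aadac fell from 297.4 to 46.3 (−2.84, adjusted p = 0.00667). Cd36 fell from 1642 to 240.5 CPM (−3.51, adjusted p = 0.00863). Ppara, the receptor that controls genes of fat oxidation, fell (−1.45, adjusted p = 0.0248). Of 19 measured PPARα targets 2 fell and 0 rose (median −0.28), a share close to the 12.6% of all jejunal genes called and no result about the list. Of 16 genes for hormonal control of lipolysis, Prkaca rose and Insr, Adcy6 and Aqp3 fell. The list of crypt and Paneth cell markers, 5 of 5 listed, summed to 6.3 to 67.0 CPM in sham and 122.4 to 292.0 in RYGB jejunum, and 2 of the 5 rose. The enterocyte list summed to 25098 to 47245 and 34443 to 39925 CPM and none of its 5 genes was called. Their part in the Cidec result was not tested.

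In duodenum none of the 6 listed genes was called. Mgll came closest, at 10.3, 11.3, 9.0, 5.3 and 10.9 CPM in sham and 2.7, 2.9, 4.9 and 2.2 in RYGB duodenum. The groups did not overlap, as was so for 7.58% of all genes of the duodenum. The estimate was −1.31 ± 0.27 (SE, log2, adjusted p = 0.0540). The gene was called with median-of-ratios scaling (−1.45, adjusted p = 0.0491). It was also called without sham library 5 (−1.25, adjusted p = 0.0369) and without RYGB library 3 (−1.49, adjusted p = 0.0102). Without the 4 libraries rich in pancreatic transcripts the estimate was −1.07 (adjusted p = 0.939). Lpl stood at 16.9, 12.1, 9.3, 0.4 and 5.7 CPM in sham and 1.4, 3.4, 0.7 and 0.4 in RYGB duodenum. Its 3 highest sham values came from the sham libraries with the most pancreatic transcripts (−1.73 ± 0.66, SE, log2, adjusted p = 0.159), and without the 4 libraries rich in pancreatic transcripts the estimate was −0.78 (adjusted p = 0.939). Pnpla2 (66.3 to 137.9 CPM in sham, 65.9 to 81.0 in RYGB), Lipe and Cidec had estimates of −0.45, −0.39 and −0.70, and Plin2 of 0.060. Of the related genes only Apoc3, an inhibitor of lipoprotein lipase, was called in duodenum, where 0.348% of all genes were called. It fell from 221.2 to 81.4 CPM (−1.42, adjusted p = 0.0381). Crypt and Paneth cell markers summed to 17.9 to 24.5 CPM in sham and 36.7 to 584.9 in RYGB duodenum.

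The jejunum and duodenum were then compared within animals. Over 5 sham and 3 RYGB animals with both tissues, Cidec in jejunum minus duodenum averaged −0.80 ± 0.56 in sham (SD, log2, n = 5; range −1.72 to −0.19) and 0.90 ± 0.19 in RYGB mice (SD, log2, n = 3; range 0.68 to 1.03). Every sham animal had more Cidec in duodenum, and every RYGB animal had more in jejunum. The groups differed by 1.70 ± 0.32 (SE, log2, adjusted p = 0.0240), in a test in which 2.4% of 10663 genes were called. The call was lost without sham animal W12 (1.74, adjusted p = 0.0645) or RYGB animal R2 (1.66, adjusted p = 0.0600) or R5 (1.64, adjusted p = 0.0617). None of the other 5 members tested was called. Pnpla2 (0.90 ± 0.34), Mgll (1.12 ± 0.45) and Lpl (1.78 ± 0.73) had adjusted p of 0.166, 0.184 and 0.199. Lpl was called without sham animal W15 (2.42, adjusted p = 0.0246), whose duodenum had 0.4 CPM of Lpl. Sham animals W11, W12 and W14 gave the duodenal libraries with 5.27%, 7.85% and 5.32% of pancreatic transcripts. The 3 RYGB animals gave duodenal libraries with 0.0655% to 0.120%. The part of this imbalance in the Cidec and Lpl differences was not tested.

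**Figure D3:**
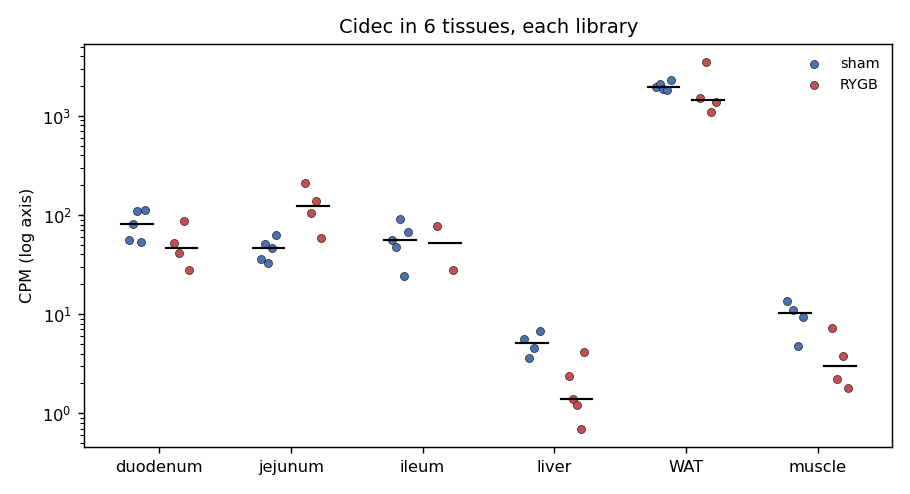
CPM (log axis) of Cidec in each library of 6 tissues, sham and RYGB; each point is 1 animal and each line a group median. In jejunum 3 of 4 RYGB points (104.8 to 211.0) lie above all 5 sham points (33.0 to 63.0), whereas in duodenum, ileum and liver the RYGB and sham points overlap.

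In ileum, with 2 RYGB libraries, all 7 listed members had estimates below 0 and none was called. The filter of 1 CPM in 2 libraries was met by sham libraries alone for Lpl and Plin4. The RYGB libraries had 0.9 and 0.1 CPM of Lpl and 0.0 of Plin4. An estimate below 0 was thus favoured by the filter for both genes. Pnpla2 stood at 128.1, 134.6, 125.3, 99.8 and 112.2 CPM in sham and at 112.2 and 77.7 in RYGB ileum. Plin2 stood at 58.4, 74.8, 59.6, 57.5 and 41.1 in sham and at 44.0 and 29.5 in RYGB ileum. The groups overlapped for both. Sham library 4, the library rich in crypt and Paneth cell transcripts, had 82.5 CPM of Lpl where the other sham libraries had 0.8 to 9.9, 66.2 of Mgll where they had 5.3 to 8.3, and 10.2 of Plin4 where they had 0.0 to 3.0. Its adipocyte list, 2 of 7 listed (Car3 and Acvr1c), summed to 193.2 CPM, against 13.4 to 20.5 in the other sham libraries, with Adipoq not listed. Without it, the estimates of Lpl, Mgll and Plin4 were −1.22, −0.49 and −0.63. No gene of the ileum was called by limma, and 438 of 12041 had an unadjusted p below 0.05.

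In liver none of 9 listed members was called, and the widest differences were in G0s2, Cidec and Pnpla2. G0s2 stood at 28.7, 47.1, 21.1 and 68.3 CPM in sham and at 5.5, 0.8, 13.9, 3.7 and 28.3 in RYGB liver. RYGB library 5 lay within the sham range and the other 4 were below it (−2.36 ± 0.69, SE, log2, adjusted p = 0.0598). It was called without RYGB library 1 (−2.30, adjusted p = 0.0469) or RYGB library 5 (−2.85, adjusted p = 0.0248), and with median-of-ratios scaling (−2.56, adjusted p = 0.0375). Lamb3, which overlaps G0s2, fell from 2.93 to 0.420 CPM in liver (−1.51, adjusted p = 0.0424).

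Cidec stood at 5.6, 3.6, 4.6 and 6.7 CPM in sham and 2.4, 1.4, 1.2, 0.7 and 4.1 in RYGB liver, where RYGB library 5 again lay within the sham range (−1.13 ± 0.41, SE, log2, adjusted p = 0.0861). Without that library Cidec was called (−1.36, adjusted p = 0.0496). Pnpla2 stood at 2.9, 4.0, 1.5 and 2.5 CPM in sham and 2.3, 5.9, 17.6, 9.3 and 4.4 in RYGB liver, with overlap at the low end (1.05 ± 0.50, SE, log2, adjusted p = 0.156). The Pnpla2 to G0s2 ratio of CPM was 0.101, 0.0849, 0.0711 and 0.0366 in sham and 0.418, 7.38, 1.27, 2.51 and 0.155 in RYGB liver. All RYGB ratios were above all sham ratios, over a wide range. They too were chosen after the values had been seen and were not tested.

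Plin2, the main droplet coat of hepatocytes, ranged from 112.5 to 423.9 CPM in sham and from 30.2 to 243.6 in RYGB liver (−0.77 ± 0.60, SE, log2, adjusted p = 0.362). Plin5 ranged from 2.7 to 7.5 in sham and 2.2 to 17.4 in RYGB liver, Mgll from 17.3 to 104.0 and 6.8 to 132.5, and Lpl from 48.3 to 131.7 and 65.8 to 188.3. Lipe and Plin4 were near the filter, at 0.4 to 3.3 and 1.5 to 4.6 CPM over all liver libraries. Of related genes, Vldlr, a receptor for triglyceride-rich lipoproteins, fell from 33.1 to 1.88 CPM (−3.34, adjusted p = 0.0155), and Cd36 fell from 1630.3 to 359.5 (−2.30, adjusted p = 0.0260). Cidea fell from 2.88 to 0.140 CPM (−1.65, adjusted p = 0.0392). It had 1.3 to 5.9 CPM in sham and 0.0 to 0.4 in RYGB liver. Cidea thus met the filter of 1 CPM in 4 libraries through the sham group alone, and its fall depends on that filter. Of 21 measured PPARα targets, 5 fell (Acot2, Vnn1, Hadhb, Fgf21, Cyp4a14) and 0 rose, where 4.63% of all liver genes were called. The median of the targets was −1.01 and that of all genes was 0.26. The macrophage list, 4 of 5 listed, summed to 6.3 to 83.4 CPM in sham and 55.7 to 993.7 in RYGB liver, and 3 of its genes rose. Its part in the member values was not tested.

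**Figure D4:**
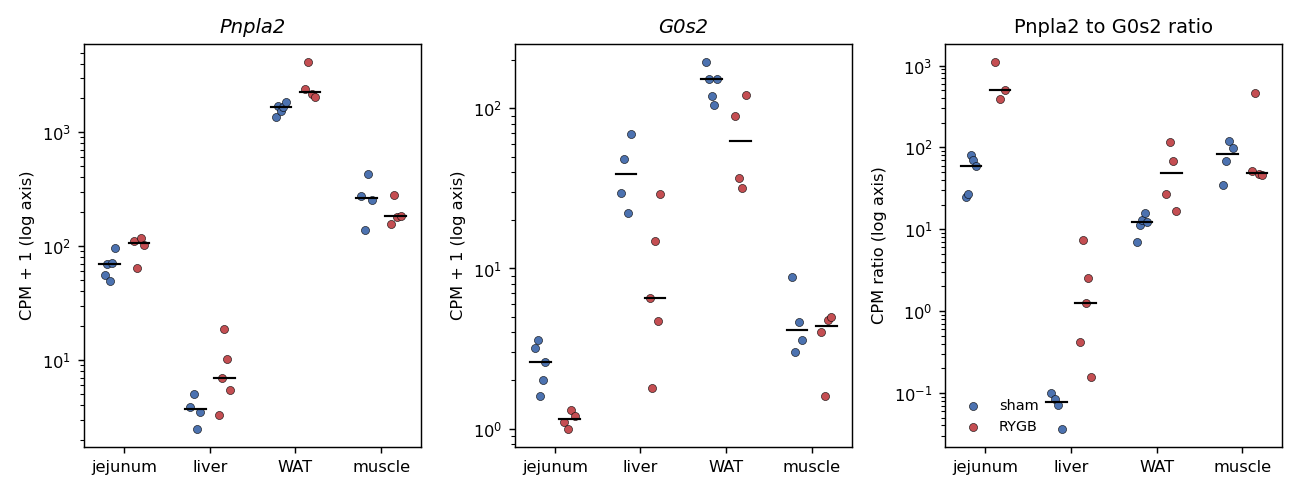
Pnpla2 and G0s2 in each library (CPM + 1, log axis) and their CPM ratio (log axis) in the 4 tissues that list both genes; each point is 1 animal and each line a group median. The ratio of RYGB animals lies above that of sham animals in jejunum (392.0 to 1095, 1 RYGB library with G0s2 at 0 left out, against 24.9 to 80.3), liver (0.155 to 7.38 against 0.0366 to 0.101) and WAT (16.7 to 114.9 against 7.0 to 15.9), and overlaps in muscle. The jejunal RYGB ratios divide by G0s2 values of 0.1 to 0.3 CPM, which are limited by rounding, in a gene listed there through sham libraries alone. The ratios were chosen after the values had been seen and were not tested.

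In muscle none of the 10 members was called, and 9 of 10 estimates were below 0. Cidec stood at 13.5, 11.1, 4.8 and 9.3 CPM in sham and 7.3, 2.2, 3.8 and 1.8 in RYGB muscle (−1.22 ± 0.37, SE, log2, adjusted p = 0.595). Lipe stood at 30.8, 19.7, 40.1 and 27.1 in sham and 16.6, 12.3, 22.9 and 18.4 in RYGB muscle (−0.70 ± 0.24, SE, log2, adjusted p = 0.595). The groups overlapped for both, and these were the members with an unadjusted p below 0.05, at 0.0071 and 0.0148.

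Plin5, the perilipin of oxidative tissue, stood at 45.3, 13.6, 67.0 and 35.5 CPM in sham and 9.8, 20.1, 24.3 and 23.4 in RYGB muscle, with sham library 2 inside the RYGB range (−0.89 ± 0.45, SE, log2, adjusted p = 0.728). Plin4 stood at 170.2 to 256.1 CPM in sham and at 97.0, 290.2, 100.1 and 128.9 in RYGB muscle, so that RYGB library 2 was above all sham libraries and the other 3 below them. Pnpla2 ranged from 137.8 to 427.2 and from 154.2 to 278.6, and Lpl from 688.5 to 4786 and from 1773 to 5735. The Pnpla2 to G0s2 ratio overlapped between the groups, at 35.1 to 118.7 in sham and 46.0 to 464.3 in RYGB muscle. Adipoq, which muscle fibres do not make, averaged 12.8 ± 5.44 CPM in sham and 6.43 ± 5.20 in RYGB muscle (SD, n = 4 each). The adipocyte list, 6 of 7 listed, overlapped at 2997 to 5537 and 2809 to 7385 CPM. Nearly all of that sum was Car3, at a mean of 4276 CPM in sham and 4754 in RYGB muscle. Means of the other listed genes were 1.03 to 15.4 CPM in sham and 0.675 to 23.9 in RYGB muscle. The sum is thus a reading of Car3. No gene of the muscle was called by limma, with 812 of 11594 at an unadjusted p below 0.05.

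The changes in WAT were compared with those in liver and muscle within animals. Plin4 in WAT minus liver averaged 10.24 ± 0.41 in sham (SD, log2, n = 4) and 8.76 ± 0.19 in RYGB mice (SD, log2, n = 4), and the ranges of 9.63 to 10.48 and 8.48 to 8.92 did not overlap. The difference was −1.48 ± 0.37 (SE, log2, adjusted p = 0.0222), with 12.8% of 9707 genes called. The call was lost without sham animal W14 (−1.43), W15 (−1.40) or W3 (−1.40) or RYGB animal R2 (−1.51) or R4 (−1.49), with adjusted p of 0.0518 to 0.0769. Liver levels of Plin4 were only 1.5 to 4.6 CPM. Of the other 8 members listed in both tissues none was called; G0s2 (1.63 ± 0.71, adjusted p = 0.133) and Cidec (1.11 ± 0.43, adjusted p = 0.0952) had positive estimates, as both estimates were lower in liver than in WAT. Cidec was called without RYGB animal R1 (1.34, adjusted p = 0.0431) and G0s2 without R3 (2.42, adjusted p = 0.0167).

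Against muscle, none of the 10 members was called, with 12.8% of 11092 genes called. Lipe, Pnpla2 and Plin4 came closest, at 0.90 ± 0.31, 1.03 ± 0.37 and −1.07 ± 0.41 (SE, log2, 4 animals in each group), with adjusted p of 0.0764, 0.0854 and 0.1003. Without RYGB animal R3 both Lipe (1.04, adjusted p = 0.0211) and Pnpla2 (1.09, adjusted p = 0.0456) were called, and Pnpla2 also without sham animal W12 (1.34, adjusted p = 0.0453). For Pnpla2, WAT minus muscle was 1.96 to 3.62 in the sham animals and 3.50 to 3.93 in the RYGB animals, which overlap. These comparisons share the WAT libraries with each other, and their p-values are not independent.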

How the data were processed

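RNA sequencing libraries were made from 51 tissue samples, and the deposited files used here are 6 tables, 1 per tissue, of gene-level CPM made by the authors and given to 1 decimal. HTSeq counted the reads on GRCm38, per the submitters' processing notes. The aligner, annotation release and strand setting were not given in the sources used here, so reads of overlapping genes may be shared. A gene is in a deposited table only if it reached 1 CPM in a number of libraries equal to the size of the smaller group, which was checked for every gene. Repeated lines (339 in ileum, 374 in WAT) and lines without a gene identifier (2 in ileum, 6 in liver) were left out. The CPM of a library summed to 978879 to 993560.1. Sequencing depth is unknown: whole reads were not recoverable in most libraries. A count-based test was therefore not made, and no interval for counting error is given.

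Samples were grouped by title and surgery label; replicates are separate animals, so p-values measure the spread between animals. Each tissue was fitted on its own with limma 3.58.1 (lmFit, then eBayes with trend and robust set) under R 4.3.3, on log2(CPM + 1) with a term for surgery and no other, two-sided, with Benjamini-Hochberg adjustment over all genes and a threshold of 0.05. Tissue differences used the same test on within-animal differences of log2(CPM + 1). The members and the 6 lists of related genes and 12 lists of cell markers were chosen with earlier results of these data known. Named genes are all members, up to 4 genes per list and tissue with the smallest adjusted p below 0.05, and a fixed set named whatever their p; Alb, Cyp2e1, Lamb3 and Hdgfrp2 and the ratios were chosen after values were seen. Each fit was also tested on simulated data in which 200 genes were changed. Replicate numbers name different animals in the 2 groups. Alternatives were median-of-ratios scaling, a pseudocount of 0.1, a mean CPM of at least 5, the replicate number as a block, limma library weights, duodenum without libraries over 1% pancreatic transcripts, and each library or animal left out in turn. Exon lengths and coordinates came from the GRCm38 annotation; promoter windows of 250 bases came from RefSeq (GRCm38.p6), which matched 9 of the 10 members. Python 3.11.15, pandas 2.3.3 and matplotlib 3.10.9 prepared the tables and figures.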

Additional observations from a re-analysis of the deposited data

Results flagged for a closer look

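Within groups of 4 or 5 libraries, 10 values lay far from the rest of their group, out of 91 groups checked (10.99%); chance flags about 1 in 20 groups. In ileum, sham library 4 was the highest for Mgll, at 66.2 CPM, and for Lpl, at 82.5 CPM. In WAT, RYGB library 2 was the highest for Pnpla2 at 4100.9 CPM, RYGB library 4 for Mgll at 2022.3 CPM, and sham library 2 for Mgll at 1506.3 CPM within its group. In liver, sham library 4 had 423.9 CPM of Plin2 and sham library 1 had 4.6 CPM of Plin4. In muscle, RYGB library 2 had 290.2 CPM of Plin4. In the gut, RYGB library 3 of duodenum had 81.0 CPM of Pnpla2 and RYGB library 1 of jejunum had 10.7 CPM of Lpl.

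Effects of the operation that differed between tissues of the same animals were found for 2 members. For Cidec, jejunum minus duodenum differed by 1.70 on the log2 scale between RYGB and sham animals. For Plin4, WAT minus liver differed by −1.48.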

How the results depend on the processing

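With 74 member results and 929 alternative fits, the call and sign stayed as in the main fit in 837. A call was lost in 29 fits and gained in 23, and 40 turned an estimate that was not called to the other sign, with 0 of those called. Plin4 and Lpl in WAT were called in all 5 alternatives and all 9 left-out fits. Depth is unknown, and values near 1 CPM, such as G0s2 in jejunum and Plin4 in liver, are limited by rounding.

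Over all genes, the duodenum count of 38 became 105 with a mean CPM of at least 5, 450 with the replicate block, 2140 with library weights and 0 without the pancreatic libraries. The jejunum count of 1390 became 455 with the replicate block. The ileum count of 0 became 593 with the replicate block and 1 with library weights. The liver count of 476 became 992 with median-of-ratios scaling, 7 with the replicate block and 3258 with library weights. The muscle count of 0 became 1 with a pseudocount of 0.1, 2 with the replicate block and 13 with library weights. The cause of these changes was not tested.

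Among members, duodenum went from 0 called to 1 with scaling (Mgll), 1 with a mean CPM of at least 5, 1 with the replicate block and 2 with library weights. Jejunum went from 2 to 1 with a mean CPM of at least 5, where G0s2 is not tested, and 0 with the replicate block (Cidec 1.48, adjusted p = 0.0638; G0s2 −1.11, adjusted p = 0.107). Liver went from 0 to 1 with scaling and 2 with library weights. WAT minus liver went from 1 to 0 with a mean CPM of at least 5, where Plin4 is not tested. Same-numbered sham and RYGB libraries came from different animals. Their deviations correlated at −0.35 to 0.56, not all above 0.1 in any tissue. With 2 to 4 such pairs in a tissue, these correlations cannot decide whether the numbers pair the libraries in some other way.

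With each library or animal left out, genes called ranged from 1 to 982 in duodenum, 484 to 2258 in jejunum, 0 to 46 in ileum, 3 to 2253 in liver, 3936 to 6151 in WAT and 0 to 24 in muscle. They ranged from 53 to 314 for jejunum minus duodenum, 383 to 2187 for WAT minus liver and 515 to 3644 for WAT minus muscle. Members called ranged from 0 to 1, 0 to 3, 0 to 0, 0 to 2, 2 to 5 and 0 to 0 in the tissues in that order, and from 0 to 2 in each of the 3 differences.

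Genes called higher and lower were 1812 and 3341 in WAT and 2681 and 2593 with scaling. They were 14 and 24 in duodenum and 13 and 37 with scaling. For jejunum minus duodenum they were 56 and 200, and 79 and 116 with scaling; for WAT minus liver 326 and 918, and 596 and 682; for WAT minus muscle 497 and 927, and 701 and 698.

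None of the estimates that changed sign was called in either fit. With scaling, Plin2 in duodenum was −0.11, Plin5 in WAT 0.027, Lipe in jejunum minus duodenum 0.097 and Plin5 in WAT minus liver 0.047. With library weights, Plin2 in duodenum was −0.11 and Lpl in muscle −0.13. Plin2 in duodenum was −0.078 without the pancreatic libraries, and Lipe in WAT minus liver was −0.043 with a pseudocount of 0.1. With a library or animal left out, Plin2 ranged from −0.11 to 0.18 in duodenum, −0.27 to 0.050 in jejunum and −0.23 to 0.12 in muscle. Mgll ranged from −0.17 to 0.74 in jejunum and −0.82 to 0.38 in liver. Lpl ranged from −0.28 to 0.82 in jejunum and −0.27 to 0.66 in muscle. Cidec in ileum ranged from −0.88 to 0.54, Plin4 in liver from −0.23 to 0.14, Lipe in liver from −0.017 to 0.39, Plin1 in WAT from −0.48 to 0.0091, Plin5 in WAT from −0.53 to 0.33 and G0s2 in muscle from −0.58 to 0.0020. Lipe ranged from −0.40 to 0.34 in jejunum minus duodenum and −0.18 to 0.47 in WAT minus liver, Plin5 from −0.66 to 0.57 in WAT minus liver, and Plin1 from −0.34 to 0.23 in WAT minus muscle.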

Other observations

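Over the 51 libraries, after the mean of each tissue was subtracted from log2(CPM + 1), each of the 6 members listed in all tissues was set beside 7680 other genes. The libraries share animals and operation groups, so these are descriptions. Pnpla2 was most like Cyth2 (Pearson r = 0.84), Gucd1 (0.83) and Gsk3a (0.82). Lpl was most like Flt1 (0.73), Slc41a1 (0.71) and Cdh5 (0.71). Lipe was most like Crat (0.70), Uap1l1 (0.66) and Acbd4 (0.65). Mgll was most like Pqlc1 (0.76), Atg7 (0.71) and Cc2d1b (0.71). Plin2 was most like Ech1 (0.68), Rnf31 (0.64) and Atg7 (0.62), and Cidec was most like Sap30l (0.64), Anxa7 (0.62) and Gsn (0.62).

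Among the members themselves, the closest pair on this measure was Mgll and Lpl (r = 0.62), followed by Pnpla2 and Lipe (0.53) and by Mgll and Plin2 (0.51). Lpl and Plin2 were at 0.0022 and Lpl and Cidec at 0.0099.

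Among the start windows of 250 bases, Lipe and Mgll each held the E-box CACGTG in their upstream start, at 155 and 44 bases before it, and 6.02% of all windows held it. Plin2 held the nuclear receptor half-site 218 bases before its start, read as TGACCT on this strand. No such match was found in the windows of Pnpla2, Plin1 or Cidec.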
